A study of Mus musculus with 15 samples.

Results

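The keratins are the intermediate filament proteins of epithelial cells. The members described here were all genes of the deposited table that were annotated as protein-coding and carried a symbol made of Krt and a digit, which gave 53 of 56748 genes. They comprised 28 type I and 25 type II keratins. RNA sequencing was done on whole kidney and whole lung of male C57Bl/6 mice labelled wild type, in 5 groups of 3 libraries. The kidneys came from mice that were 10 to 12 weeks old when injected, and were taken at day 28. These mice received the sodium bicarbonate vehicle (WTK), folic acid with control IgG (IgGK) or folic acid with LepAb, a leptin-neutralizing antibody (LepK). The lungs came from mice that were 12 weeks old when given bleomycin, and were taken at day 14. Bleomycin was given intratracheally at 1.5 units/kg, with IgG (IgGL) or with LepAb (LepL). Both antibodies were given at 10 mg/kg, the labels name no antibody for WTK, and a vehicle-treated lung group was not analysed here. The lung libraries came from separate mice. For kidney this is not stated, so that its p-values measure the spread between libraries, which may be technical.

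Every keratin filament is built from pairs of 1 type I and 1 type II protein, so that epithelia express the genes of both types in set combinations. Simple epithelia such as the kidney tubule and the alveolar lining use Krt8 with Krt18, often with Krt7 and Krt19. Krt20 belongs to the umbrella cells of the urothelium and to the gut surface, and is known as a gene of injured kidney tubules. Basal cells of stratified epithelia use Krt5 with Krt14 and Krt15, the layers above them in mucosa use Krt4 with Krt13 and in epidermis Krt1 with Krt10, and Krt6a, Krt6b, Krt16 and Krt17 are the keratins of wounded epithelium. The remaining genes largely belong to the hair shaft and its root sheath. Krt8 is also known to be high in the transitional alveolar cells of the bleomycin-injured lung.

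In the coordinates of the table, which are those of the mouse build GRCm39, 27 members lay on chromosome 11 between positions 99123587 and 100160697. The other 26, all type II genes and the type I gene Krt18, lay on chromosome 15 between 101245325 and 101940462. Several of the members named below were neighbours. Krt20 lay 6.14 kb from Krt12 and 39.8 kb from Krt23, Krt13 lay 10.2 kb from Krt15, which lay 4.88 kb from Krt19, and Krt4, Krt79 and Krt78 were consecutive with gaps of 4.60 and 5.68 kb. Krt8 and Krt18 stood side by side with 23.7 kb between them, on opposite strands (Krt8 at 101905133 to 101912917 and Krt18 at 101936615 to 101940462). Krt20 lay at 99319229 to 99328976 and Krt13 at 100008153 to 100012392 on chromosome 11. Of the 53 members 12 overlapped another gene, which reads without strand cannot separate, and the pseudogene Krt8-ps had 6 to 35 counts per library. How reads shared by near-identical genes such as Krt6a and Krt6b were counted is not given in the sources used here.

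The sequences before the transcription start are shown for Krt20, which was called in kidney, for Krt13, which was called in lung, and for the Krt8 and Krt18 pair of simple epithelia. Each line gives the 250 bases before a RefSeq start in the older build GRCm38.p6, read 5′ to 3′ on the strand of the gene, from chr11:99438154-99438403 (minus strand) for Krt20, chr11:100121567-100121816 and chr11:100120578-100120827 (minus) for the starts 1 and 2 of Krt13, chr15:102004343-102004592 (minus) for Krt8 and chr15:102027966-102028215 (plus) for Krt18. Capitals mark matches to the letters TATAAA, the TATA box, or TGANTCA, the AP-1 motif.
Krt20: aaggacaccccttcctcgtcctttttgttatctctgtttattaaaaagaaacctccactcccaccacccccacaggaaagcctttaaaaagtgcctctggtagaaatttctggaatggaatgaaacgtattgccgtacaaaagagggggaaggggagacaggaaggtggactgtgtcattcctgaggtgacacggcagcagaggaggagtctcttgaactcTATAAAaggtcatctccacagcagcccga
Krt13 start 1: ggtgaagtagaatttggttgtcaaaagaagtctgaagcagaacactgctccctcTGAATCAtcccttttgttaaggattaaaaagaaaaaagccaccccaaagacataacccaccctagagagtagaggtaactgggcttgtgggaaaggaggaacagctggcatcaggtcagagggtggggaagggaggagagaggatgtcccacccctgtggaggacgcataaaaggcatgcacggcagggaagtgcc
Krt13 start 2: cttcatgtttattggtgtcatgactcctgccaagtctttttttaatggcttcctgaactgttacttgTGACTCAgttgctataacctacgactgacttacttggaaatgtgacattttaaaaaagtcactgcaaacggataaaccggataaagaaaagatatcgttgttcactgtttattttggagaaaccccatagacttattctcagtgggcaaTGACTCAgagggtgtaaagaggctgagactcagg
Krt8: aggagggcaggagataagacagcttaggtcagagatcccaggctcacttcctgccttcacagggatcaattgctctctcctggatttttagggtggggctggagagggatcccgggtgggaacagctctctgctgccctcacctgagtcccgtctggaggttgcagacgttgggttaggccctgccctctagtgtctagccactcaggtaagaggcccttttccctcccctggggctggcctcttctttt
Krt18: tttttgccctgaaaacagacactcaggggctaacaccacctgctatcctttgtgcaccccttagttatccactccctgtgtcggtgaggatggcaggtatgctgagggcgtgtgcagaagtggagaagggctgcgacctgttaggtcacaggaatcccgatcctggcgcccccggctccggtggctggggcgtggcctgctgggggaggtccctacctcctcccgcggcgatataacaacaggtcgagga

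A RefSeq promoter was found for 36 members, with 37 starts. On either strand of these windows, TATAAA was present in 17 of the 37 keratin starts, against 12.368% of 32851 promoters of the same length. These were Krt10, Krt12, Krt20 and 14 hair, root sheath or epidermal keratins, while the windows of Krt8, Krt18, Krt7, Krt5 and Krt13 did not hold these letters. In Krt20 and Krt12 alike the match lay 29 to 24 bases before the start. TGANTCA was found in both Krt13 starts and in no other matched keratin, with 6.749% of all promoters holding it. The STAT motif TTCNNNGAA was present in 4 starts (Krt24, Krt25, Krt31 and Krt42) against 7.02% of all, and the GC box GGGCGG in Krt7 and Krt75 against 32.742%. A match of letters is a description and not a binding site.

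Total counts ran from 25913969 to 38924788 per library, at which 1 count was worth 0.0252 to 0.0415 CPM, a count scaled by library size. CPM values below are scaled further by TMM, the trimmed mean of M-values, within an organ. FPKM values, fragments scaled by gene length and depth, are used to compare genes. Scaling by library size in place of TMM moved the median log2 difference of all genes by 0.44 in IgGK against WTK, by -0.18 in LepK against IgGK and by 0.26 in LepK against WTK, but by 0.04 in lung. The genes called in IgGK against WTK then went from 4253 higher and 3057 lower to 7803 and 1178, and those in LepK against IgGK from 858 and 1174 to 408 and 2185. The organs matched their labels. Summed proximal tubule markers reached 11801 to 50216 CPM in kidney and 742 to 1011 in lung, and summed alveolar type 2 markers 6373 to 23377 in lung and 208 to 544 in kidney.

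A count was found for 49 of the 53 members, 34 of them in kidney and 48 in lung. In 25 members no library had 10 counts or more, and 17 members had at least 100 counts in a library. The filter on low counts left 14 members to be tested in kidney and 23 in lung, 13 of them in both, and 29 members were tested in neither organ. In the hair shaft and root sheath group of 23 genes, 18 stayed under 10 counts in every library, and the highest count was 298, in Krt87. The 32 members not named with values below had at most 55 counts.

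Krt8 had the highest mean FPKM of the keratins in all 5 groups, although Krt13 was above it in LepL replicate 3, at 147 against 124. Per length, Krt8 stood at 70.5 FPKM in WTK, where Krt7 followed at 11.8 to 12.2, Krt18 at 10.9, Krt10 at 3.43 and Krt19 at 1.88. In IgGK the order was Krt8 at 90.7, Krt18 at 41.0, Krt19 at 19.2, Krt7 at 18.4 and Krt20 at 10.4 FPKM, and the ranges of Krt19 (18.2 to 20.9) and Krt7 (16.1 to 19.7) overlapped. In IgGL, Krt8 at 176, Krt19 at 127 and Krt18 at 125 FPKM led, followed by Krt7 at 76.2, Krt13 at 23.7, Krt80 at 22.7 and Krt4 at 13.4. The libraries of Krt8, Krt18 and Krt19 overlapped in this group. Those of Krt13, which reached 34.8 FPKM, overlapped both Krt80, at 21.1 to 24.8, and Krt4, at 9.38 to 20.6, which did not overlap each other. In LepL, Krt13 at 99.6 FPKM took the second place, between Krt8 at 127 and Krt18 at 95.8, with 42.2, 110 and 147 FPKM in its libraries. Krt10, which epidermis expresses with Krt1, had rank 4 in WTK and rank 13 in both lung groups.

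**Figure D1:**
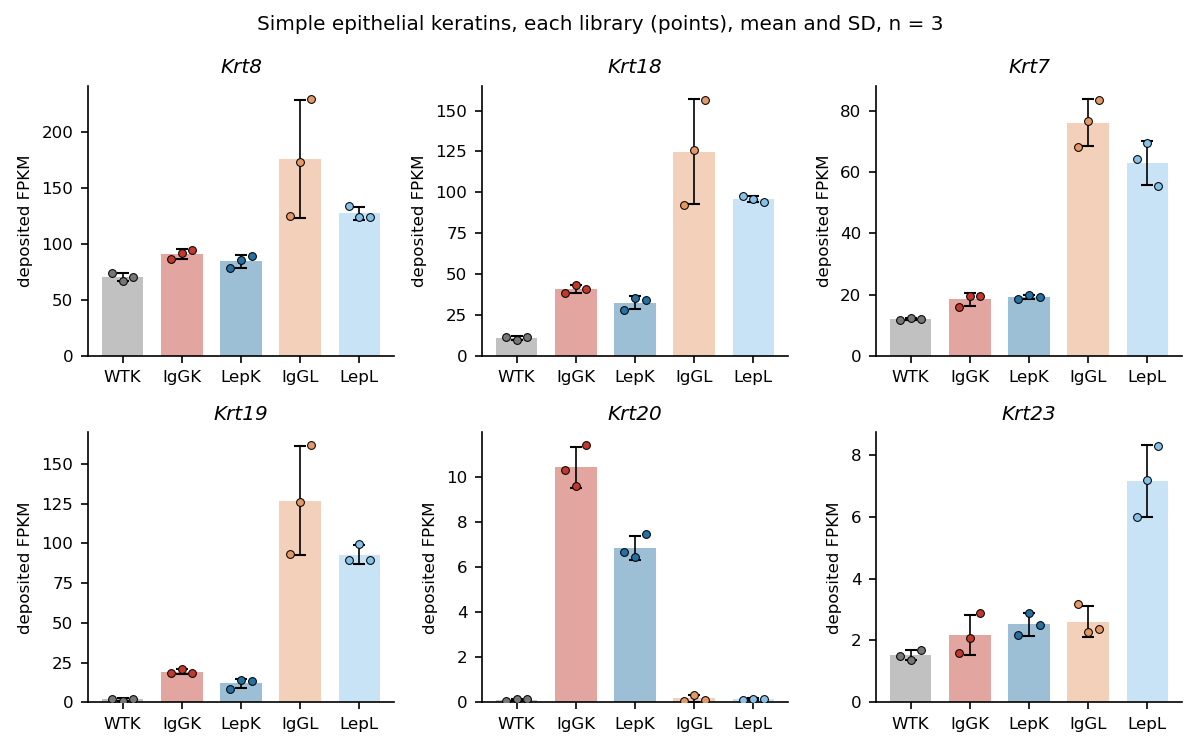
Deposited FPKM of 6 simple epithelial keratins in the 5 groups, with a point for each library, bars for the means and error bars for the SD (n = 3). Krt20 is near 0 in all groups except IgGK and LepK, and the lung bars of Krt8, Krt18, Krt7 and Krt19 stand above the kidney bars.

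In IgGK against WTK, the comparison of folic acid-injured with vehicle kidney, 4 of the 6 simple keratins (Krt20, Krt19, Krt18 and Krt7) and the basal keratins Krt5, Krt14 and Krt15 were called higher. Of the 14 members tested, 9 were called higher (background 21.7% of 19593 genes) and 1 lower (15.6%), 10 in all (37.3%), and the median log2 difference was 2.14 against 0.04 over all genes tested. A member was called where edgeR's quasi-likelihood test gave it an adjusted p below 0.05, after Benjamini-Hochberg adjustment over all genes tested, and its log2 difference exceeded 0.5 in size. The libraries of IgGK and WTK did not overlap in 10 members that were higher and 1 that was lower, against 32.5% and 30.1% of all genes tested (62.6% in either direction). Under library-size scaling 11 members were called, each of them higher. Krt12, Krt17 and Krt20 had few or no counts in WTK and passed the filter through the folic acid groups. Their calls against WTK could therefore only be upward. A filter at a mean of 1 CPM instead still kept Krt20. With it, 7 of 11 members were called higher and 1 lower, against 3722 and 2798 of 15808 genes. In whole-organ RNA, more cells of a type and more RNA per cell cannot be told apart.

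Krt20 had the smallest p of the family. Its level was 0.166, 0.316 and 0.325 CPM in the WTK libraries, 24.6, 22.9 and 27.4 in IgGK, and 15.6, 15.2 and 17.6 in LepK. The 3 groups did not overlap, with IgGK highest and LepK between. The mean in IgGK was 92.9 times that in WTK, a log2 difference of 6.50 (SE 0.19, edgeR adjusted p = 3.05e-09), where WTK rested on 4, 8 and 9 counts. In LepK the mean was 64.6% of that in IgGK, and Krt20 fell by 0.63 on the log2 scale (SE 0.12, edgeR adjusted p = 0.00308). LepK remained 5.87 above WTK (SE 0.19, edgeR adjusted p = 1.23e-08).

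Krt18, the type I partner of Krt8, was at 20.1, 16.5 and 20.2 CPM in WTK and at 68.9, 77.5 and 73.0 in IgGK. It rose 3.86-fold, by 1.95 on the log2 scale (SE 0.11, edgeR adjusted p = 4.63e-08). Krt8 itself was at 176, 158 and 167 CPM in WTK and 209, 222 and 230 in IgGK, without overlap. Its log2 difference of 0.40 (SE 0.07, edgeR adjusted p = 0.000473) stayed under the fold threshold, and it was called under library-size scaling, at 0.84. Krt7 rose by 0.66 (SE 0.08, edgeR adjusted p = 2e-05), from 101 to 104 CPM in WTK to 140 to 173 in IgGK. Krt19, a type I keratin of ducts and simple epithelia, rose 10.5-fold, by 3.39 (SE 0.24, edgeR adjusted p = 2.7e-07), with 5.03, 2.37 and 5.23 CPM in WTK and 41.7, 48.2 and 42.9 in IgGK. Krt23 was at 2.61 to 3.21 CPM in WTK and 3.10 to 5.61 in IgGK, which overlapped, and was not called (log2 difference 0.56, SE 0.25, edgeR adjusted p = 0.0744).

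The basal keratins moved in the same direction. Krt5 was at 1.91, 1.66 and 1.51 CPM in WTK and 9.46, 10.7 and 9.39 in IgGK (5.82-fold, log2 2.54, SE 0.24, edgeR adjusted p = 1.87e-06). Krt14, its type I partner, was at 0.415, 0.513 and 0.577 CPM in WTK and 2.64, 3.49 and 4.25 in IgGK (log2 2.77, SE 0.40, edgeR adjusted p = 8.01e-05). Krt15 was at 2.95, 2.33 and 3.46 CPM in WTK and 13.1, 13.7 and 17.1 in IgGK (log2 2.32, SE 0.21, edgeR adjusted p = 1.71e-06). In each of the 3 genes every IgGK library was above every WTK library. Among the wound keratins, Krt17 had 0, 2 and 2 counts in WTK and 42, 42 and 29 in IgGK, and was called higher (log2 4.36, SE 0.95, edgeR adjusted p = 0.00186). Krt16 had at most 3 counts in a kidney library, and Krt6a and Krt6b had none.

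Krt12, known as a keratin of the cornea, had no count in WTK or lung and 4, 20 and 16 counts in IgGK. Against a floor of 3 counts over the WTK group, its level was at least 10.3-fold higher in IgGK (edgeR adjusted p = 0.0129). In LepK it had 0, 13 and 11 counts, at least 7.07-fold above the same floor. Its gene overlaps A830036E02Rik, so that a part of these counts may be shared. Krt10 was the member that fell, from 8.52, 9.79 and 7.97 CPM in WTK to 4.42, 4.77 and 6.45 in IgGK (log2 -0.75, SE 0.18, edgeR adjusted p = 0.00376), a call that was lost under library-size scaling, at -0.31. Krt80, an epidermal type II keratin, had means of 14.2 CPM in WTK and 11.6 in IgGK (log2 -0.29, edgeR adjusted p = 0.0988), and its difference turned to 0.15 under library-size scaling. Krt4 had 0 to 1 count in WTK and 2 to 25 in IgGK, and Krt13 had none in either group.

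In LepK against IgGK, the antibody comparison in injured kidney, 5 of the 14 members were called lower (background 5.99% of 19593 genes) and 1 higher (4.38%), 6 in all (10.4%). The members called lower were Krt20, Krt19, Krt5, Krt14 and Krt17, each of which had been called higher in IgGK against WTK. Krt17 passed the filter through the IgGK libraries, so that its call here could only be downward. The comparisons share the IgGK libraries, so that their values are given side by side only. The libraries did not overlap in 7 members that were lower and 2 that were higher, against 19.5% and 17.8% of all genes tested (37.4% in either direction). The median log2 difference was -0.49 over the members tested and -0.01 over all genes. With a filter at a mean of 1 CPM, 4 of 11 members were called lower and 0 higher, against 1152 and 838 of 15808 genes.

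Krt5 was at 4.02, 4.59 and 7.16 CPM in LepK, below each IgGK library, and fell by 0.91 on the log2 scale (SE 0.21, edgeR adjusted p = 0.0105) to 53.3% of the IgGK mean. Krt14 was at 0.724, 1.04 and 1.92 CPM and fell by 1.50 (SE 0.37, edgeR adjusted p = 0.013), to 35.5%. Without IgGK replicate 3 its adjusted p was 0.0579. Krt19 was at 19.5, 32.0 and 29.8 CPM and fell by 0.71 (SE 0.21, edgeR adjusted p = 0.0304), to 61.3%. Its adjusted p rose to between 0.0523 and 0.103 without IgGK replicate 1, 2 or 3 or LepK replicate 1 or 3, and was 0.0881 with DESeq2. Krt17 had 0, 10 and 7 counts in LepK and fell by 2.51 (SE 0.79, edgeR adjusted p = 0.04), and the call ended in 7 of the 9 fits without 1 library, all but those without WTK replicate 1 or LepK replicate 2, with adjusted p from 0.0577 to 0.118. The Krt20 and Krt5 calls held in all 9 of these fits, at log2 differences of -0.70 to -0.55 and -1.20 to -0.75.

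The other simple keratins differed less. Krt18 was at 48.7, 62.3 and 59.6 CPM in LepK, below each IgGK library, and its log2 difference of -0.36 (SE 0.10, edgeR adjusted p = 0.0226) was under the fold threshold. Under library-size scaling it was -0.54 and called. Krt8 was at 186, 204 and 214 CPM (log2 -0.13, SE 0.07, edgeR adjusted p = 0.237) and Krt7 at 158, 172 and 166 (log2 0.03, SE 0.08, edgeR adjusted p = 0.805), and both overlapped IgGK. Krt15 was at 7.90 to 13.0 CPM, below the IgGK libraries, but was not called (log2 -0.50, SE 0.19, edgeR adjusted p = 0.0898). Krt10 was at 7.54, 8.41 and 6.46 CPM, above each IgGK library, and was not called (log2 0.52, SE 0.18, edgeR adjusted p = 0.0626). Krt80 was at 16.8, 18.4 and 13.9 CPM and was called higher at the threshold itself (log2 0.50, SE 0.14, edgeR adjusted p = 0.0248), a call that ended under library-size scaling, at 0.32, under upper-quartile scaling, without a filter on low counts, with a filter at a mean of 1 CPM, with DESeq2, and without IgGK replicate 1 or 2 or LepK replicate 1 or 2 (0.41 to 0.60 over all fits without 1 library).

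LepK stayed above WTK in most of these genes, with 9 of 14 members called higher (background 15.2% of 19593 genes) and none lower (7.3%). The 2 members below 0, Krt10 and Krt222, had edgeR adjusted p of 0.348 and 0.265. The libraries did not overlap in 9 members, all higher, against 25.6% of all genes tested (24.6% lower and 50.2% in either direction). Krt20 and Krt12 passed the filter through the folic acid groups and could only be called higher. With a filter at a mean of 1 CPM, 8 of 11 members were called higher, against 2775 of 15808 genes. Besides Krt20, the called members included Krt19 (log2 2.68, SE 0.24, edgeR adjusted p = 8.98e-06), Krt15 (log2 1.82, SE 0.21, edgeR adjusted p = 4.7e-05), Krt5 (log2 1.63, SE 0.24, edgeR adjusted p = 0.000203) and Krt18 (log2 1.58, SE 0.11, edgeR adjusted p = 1.4e-06). Krt23 was called here at 0.73 (SE 0.25, edgeR adjusted p = 0.0321), with 4.11, 5.53 and 4.80 CPM in LepK. That call was lost without WTK replicate 1 or 2 or LepK replicate 2 or 3, with adjusted p up to 0.103. Krt14, at 1.27 (SE 0.41, edgeR adjusted p = 0.027), lost its call without WTK replicate 1 or 2 or LepK replicate 3, with adjusted p up to 0.144. Krt10 in LepK overlapped WTK (log2 -0.23, edgeR adjusted p = 0.348, and 0.03 under library-size scaling).

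**Figure D2:**
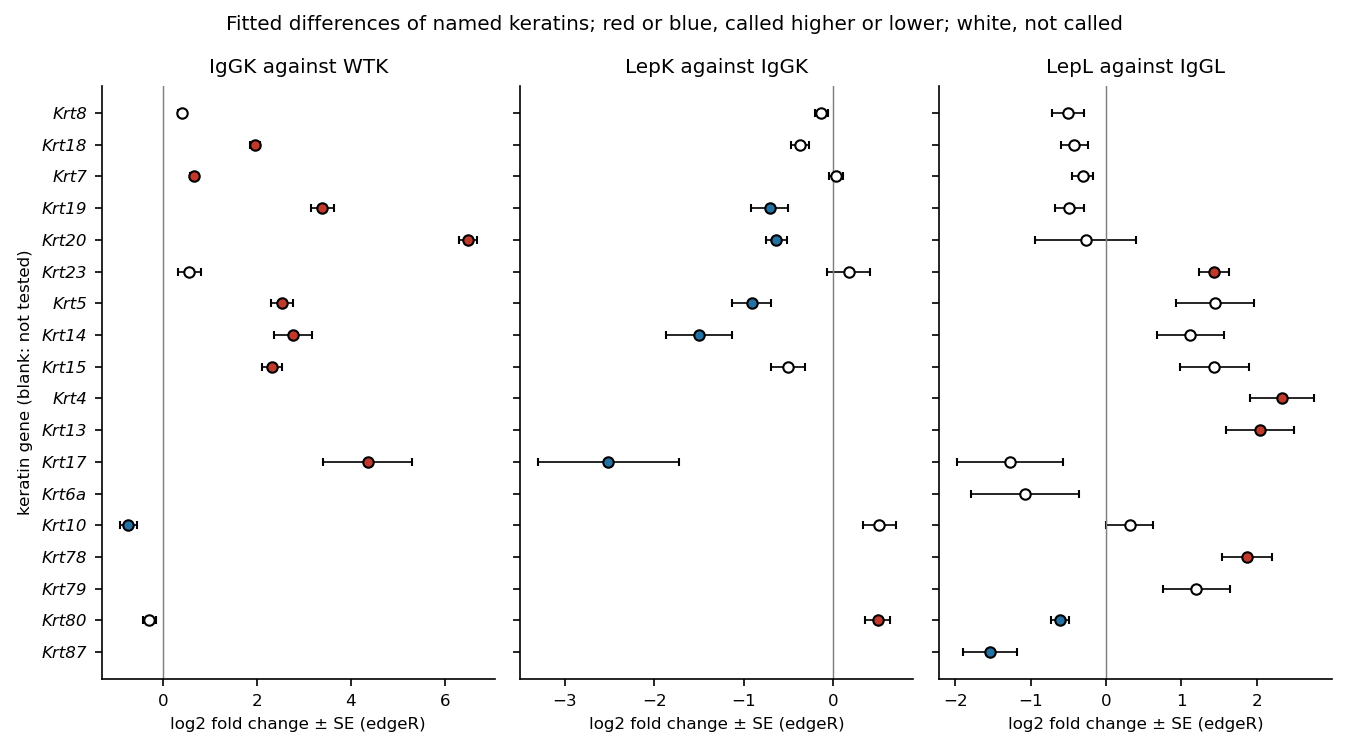
Log2 fold changes with their SE from edgeR for 18 named keratins in IgGK against WTK, LepK against IgGK and LepL against IgGL, each on its own horizontal scale, where filled points are called and blanks were not tested. Krt20, Krt19, Krt5, Krt14 and Krt17 lie right of 0 in the first panel and left of it in the second, and Krt4, Krt13, Krt23 and Krt78 lie right of 0 in the lung panel.

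Markers of other cells moved with the kidney keratins. Of the urothelium list, which names bladder and renal pelvis lining genes, 7 of 8 members were tested. All 7 were called higher in IgGK than in WTK (background 21.7% of 19593 genes), and 5 were called lower in LepK than in IgGK (background 5.99%). The summed level of the list was 23.3 to 30.8 CPM in WTK, 79.0 to 112 in IgGK and 56.5 to 80.2 in LepK, with Gsdmc at 0 in all kidney libraries. The uroplakin Upk3a was at 2.70, 3.28 and 3.50 CPM in WTK, 13.6, 15.4 and 19.7 in IgGK and 7.44, 12.9 and 9.05 in LepK. Of the 8 injured tubule genes, 8 were called higher in IgGK and 8 were called lower in LepK than in IgGK, against the same backgrounds. Their sum was 388 to 411 CPM in WTK, 6466 to 6843 in IgGK and 2564 to 3977 in LepK. Havcr1, the kidney injury molecule, was at 0.577 to 1.58 CPM in WTK, 117 to 155 in IgGK and 55.3 to 74.0 in LepK. The part of either cell type in the keratin differences was not tested.

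The other lists marked the rest of the organ. The 8 proximal tubule genes were all called lower in IgGK (background 15.6% of 19593 genes), and 7 were called higher in LepK than in IgGK (background 4.38%). Their sums were 48128 to 50216 CPM in WTK, 11801 to 18855 in IgGK and 25806 to 35007 in LepK. Of 8 collecting duct genes, whose cells also use Krt7, Krt8 and Krt18, 1 was called higher in IgGK (Gata3, log2 0.51, background 21.7%) and 1 lower (Aqp3, log2 -0.89). In LepK against IgGK 1 was called higher (Aqp3, log2 0.72), and the median log2 difference of the list was 0.39. The sums were 1018 to 1180 CPM in WTK, 943 to 1109 in IgGK and 1279 to 1637 in LepK, with LepK above both other groups. Of the 5 mesothelium genes tested, 4 were called higher in IgGK, with Msln at 1.63, and in LepK against IgGK the 5 had edgeR adjusted p of 0.495 to 0.981. The 6 airway basal genes, of which Krt5, Krt14 and Krt15 are keratins themselves, included 5 that were called higher in IgGK, with Trp63 at 1.36 (SE 0.29). In the epidermis and squamous list Ivl (log2 3.60) and Sbsn (log2 0.59) were called higher in IgGK, with Dsg1a, Sprr1b and Sprr2d at 0 in kidney. The sum of this list was 6.24 to 7.73 CPM in WTK, 8.87 to 10.1 in IgGK and 6.09 to 7.84 in LepK, with IgGK above both other groups. Its part in the keratin differences was not tested.

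Further lists held the proteins that keratins attach to and the other intermediate filaments. Of the 14 desmosome and plakin genes tested in kidney, 6 were called higher in IgGK (background 21.7% of 19593 genes). Among them were Plec, which links filaments to the membrane (log2 1.04, SE 0.08), the desmosomal cadherin Dsg2 (log2 1.41, SE 0.16) and Eppk1 (log2 1.89, SE 0.31). Pkp4 was called lower (log2 -0.74, SE 0.07). The median of the list was 0.27. In LepK against IgGK, Pkp4 (log2 0.35), Perp (log2 0.26) and Plec (log2 -0.26) had edgeR adjusted p of 0.00363, 0.0157 and 0.0301 and stayed under the fold threshold, and the others had 0.0561 or more. Of the 13 other intermediate filament genes, 9 were called higher in IgGK against the same background, and the median of the 13 was 1.17. They included Vim, the filament of mesenchymal cells, at 1.93 (SE 0.13), Nes at 1.29 (SE 0.12), Des at 1.17 (SE 0.13) and Lmna at 0.57 (SE 0.08). In LepK, Vim was called lower (log2 -0.62, SE 0.12, edgeR adjusted p = 0.00356), and it was the one called gene of that list.

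The unequal rise of Krt8 and Krt18 changed the ratio of the pair. Krt8 over Krt18 in FPKM was 6.40, 7.04 and 6.08 in WTK, 2.23, 2.10 and 2.32 in IgGK and 2.80, 2.41 and 2.63 in LepK. The 3 kidney groups did not overlap, and WTK was highest. The exact two-sided permutation p was 0.1 for each pair of kidney groups, the smallest that 3 against 3 can give. In lung the ratio was 1.35, 1.38 and 1.46 in IgGL and 1.37, 1.29 and 1.32 in LepL, with overlap (exact permutation p = 0.2). Krt8 alone made up 67.2% of the summed keratin FPKM in WTK, 45.6% in IgGK and 49.5% in LepK.

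Summed over all 53 members, the keratin level was 99.0 to 109 FPKM in WTK, 187 to 206 in IgGK and 153 to 179 in LepK, without overlap. It was 456 to 738 FPKM in IgGL and 503 to 683 in LepL, which overlapped (exact permutation p = 0.8). Type I keratins were 18.8% ± 1.08 (SD, n = 3) of that sum in WTK, 42.3% ± 0.34 in IgGK and 36.6% ± 2.18 in LepK. In lung their share was 49.3% ± 0.50 in IgGL and 52.1% ± 2.44 in LepL. The deposited FPKM carry a further scaling per library, which leaves ratios and shares within a library as they are. It differed between the kidney groups, so that the sums compared here depend on it. With normalized CPM in place of FPKM, the log2 difference of the sum was 0.83 in place of 0.92 in IgGK against WTK. In LepK against IgGK it was -0.17 in place of -0.23.

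**Figure D3:**
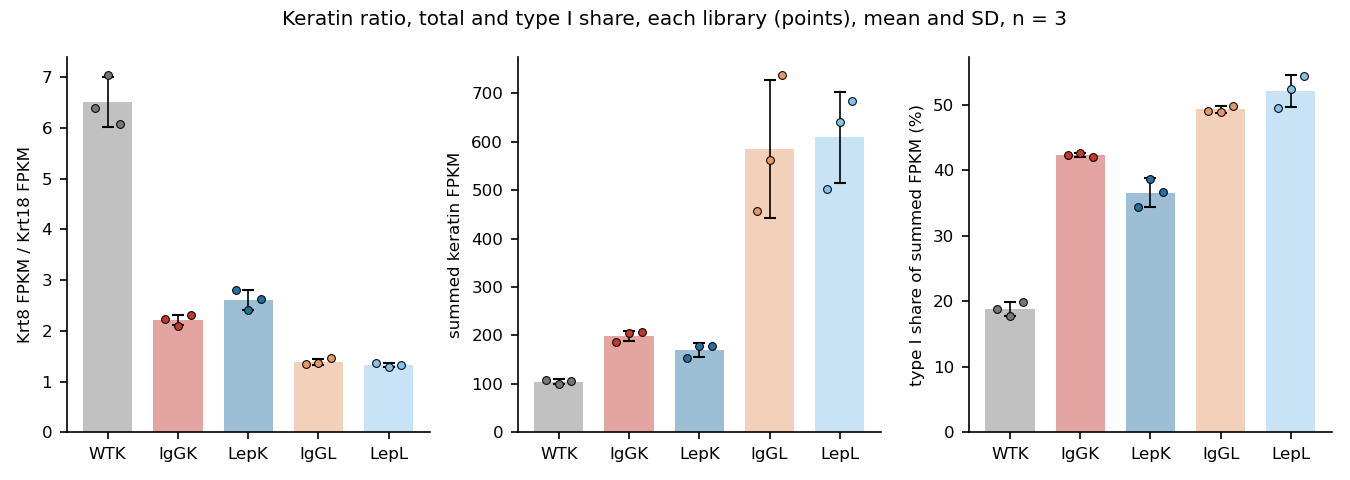
From left to right, the ratio of Krt8 to Krt18 FPKM, the summed FPKM of all 53 keratins and the type I share of that sum in percent, with a point for each library, bars for the means and error bars for the SD (n = 3). The ratio is between 6.08 and 7.04 in WTK and at most 2.80 in all other libraries.

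In LepL against IgGL, the antibody comparison in bleomycin-injured lung, the keratins called higher were Krt4 and Krt13 of stratified mucosa, Krt78, an epidermal keratin, and Krt23, which is grouped here with the simple keratins. Of the 23 members tested, 4 were called higher (background 1.78% of 19617 genes) and 2 lower (2.36%), and the median log2 difference was -0.19 against 0.003 over all genes. In all, 6 members were called (background 4.14%), and DESeq2 called 7. The libraries did not overlap in 6 members that were higher and 2 that were lower, against 16% and 17.3% of all genes tested (33.3% in either direction). With all 6 libraries the adjusted p lay between 0.0327 and 0.0491. Over the fits without 1 library, 0 to 10 members were called, with 10 without IgGL replicate 1, 1 without LepL replicate 1, which was Krt4, and 0 without IgGL replicate 2 or 3 or LepL replicate 2 or 3. With the replicate number as a block, which the labels do not tie to a shared source, none was called. The calls over all genes moved likewise: 1937 higher and 1602 lower without IgGL replicate 1, at most 18 higher and 4 lower without any other library, and 1 higher and 3 lower with the block. The directions of the 6 called members were kept in each of these fits.

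Krt13, a type I keratin of mucosal upper layers, was at 58.1, 37.4 and 94.0 CPM in IgGL and 110, 287 and 381 in LepL. All LepL libraries were above all IgGL libraries, although LepL replicate 1 was close to IgGL replicate 3. The difference was 2.04 on the log2 scale (SE 0.45, edgeR adjusted p = 0.0445), and 1.65 to 2.44 in the fits without 1 library. Krt4, its type II partner and on another chromosome, was at 31.2, 29.3 and 65.3 CPM in IgGL and 101, 239 and 294 in LepL (log2 2.34, SE 0.42, edgeR adjusted p = 0.0337). The order of the 6 libraries was the same in both genes. Krt13 went from 4.03% of the keratin sum in IgGL to 15.7% in LepL, as means over libraries, and Krt4 from 1.67 to 2.80% of it in the IgGL libraries to 6.59 to 14.2% in LepL.

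Krt78, an epidermal type II keratin, was at 1.19, 1.69 and 1.83 CPM in IgGL and 3.72, 5.67 and 7.81 in LepL (log2 1.87, SE 0.34, edgeR adjusted p = 0.0337). Krt79, which lies between Krt4 and Krt78, was at 1.17 to 3.33 CPM in IgGL and 2.81 to 6.60 in LepL and was not called (log2 1.20, SE 0.44, edgeR adjusted p = 0.128). Krt23 was at 7.12, 5.19 and 5.49 CPM in IgGL and 13.3, 16.1 and 18.5 in LepL, the lowest adjusted p of the 23 members (log2 1.43, SE 0.20, edgeR adjusted p = 0.0327).

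The basal keratins were higher on average but uneven. Krt5 was at 17.6, 5.14 and 19.0 CPM in IgGL and 16.0, 42.9 and 54.3 in LepL (log2 1.44, SE 0.52, edgeR adjusted p = 0.12). LepL replicate 1 lay within the IgGL range and the other LepL libraries above it. Krt14 was at 9.45, 6.41 and 8.61 CPM in IgGL and 6.11, 20.1 and 26.8 in LepL (log2 1.12, SE 0.44, edgeR adjusted p = 0.148), with LepL replicate 1 below each IgGL library. Krt15 was at 4.89 to 18.8 CPM in IgGL and 20.9, 34.1 and 49.4 in LepL, without overlap (log2 1.44, SE 0.46, edgeR adjusted p = 0.0912). None of the basal keratins was called.

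Of the 6 simple keratins Krt23 was called higher in lung, and the other 5 had lower means in LepL and were not called. Krt8 was at 349, 497 and 665 CPM in IgGL and 373, 346 and 346 in LepL (log2 -0.50, SE 0.21, edgeR adjusted p = 0.157). The IgGL libraries spread widely and IgGL replicate 1 was within the LepL range. Without it, Krt8 was called lower at -0.71 (edgeR adjusted p = 0.0099), and Krt18 and Krt19 were called as well. Krt18 was at 190, 265 and 334 CPM in IgGL and 192 to 200 in LepL (log2 -0.42, SE 0.18, edgeR adjusted p = 0.177), Krt19 at 248, 342 and 444 and 236 to 265 (log2 -0.49, SE 0.19, edgeR adjusted p = 0.145), and Krt7 at 689 to 874 and 557 to 701 (log2 -0.31, SE 0.14, edgeR adjusted p = 0.194). In these 4 genes IgGL replicate 1 was the lowest and IgGL replicate 3 the highest of the IgGL libraries. Krt20 had 6 to 35 counts in a lung library and did not separate the groups (log2 -0.27, SE 0.67, edgeR adjusted p = 0.83).

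Krt80 and Krt87 were the members called lower. Krt80 was at 193, 207 and 235 CPM in IgGL and 136, 153 and 128 in LepL (log2 -0.61, SE 0.12, edgeR adjusted p = 0.036), without overlap. Its gene overlaps Gm35853 and Mir1941, whose counts came to 2597 over all libraries. Krt87, a hair keratin, was at 3.77, 7.69 and 9.91 CPM in IgGL and 2.68, 2.69 and 1.96 in LepL (log2 -1.54, SE 0.36, edgeR adjusted p = 0.0491), and lost its call under library-size and upper-quartile scaling. Krt17 was at 0.443, 1.22 and 3.46 CPM in IgGL and 0.409 to 0.680 in LepL replicates 2 and 3, with 31 counts in LepL replicate 1 (log2 -1.28, SE 0.70, edgeR adjusted p = 0.275), and Krt6a at 0.194 to 1.60 and 0.321 to 0.428. Krt16 had at most 9 counts in a lung library and Krt6b at most 4. Krt10 was at 1.69 to 3.26 CPM in IgGL and 2.74 to 3.83 in LepL (log2 0.31, SE 0.31, edgeR adjusted p = 0.558).

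**Figure D4:**
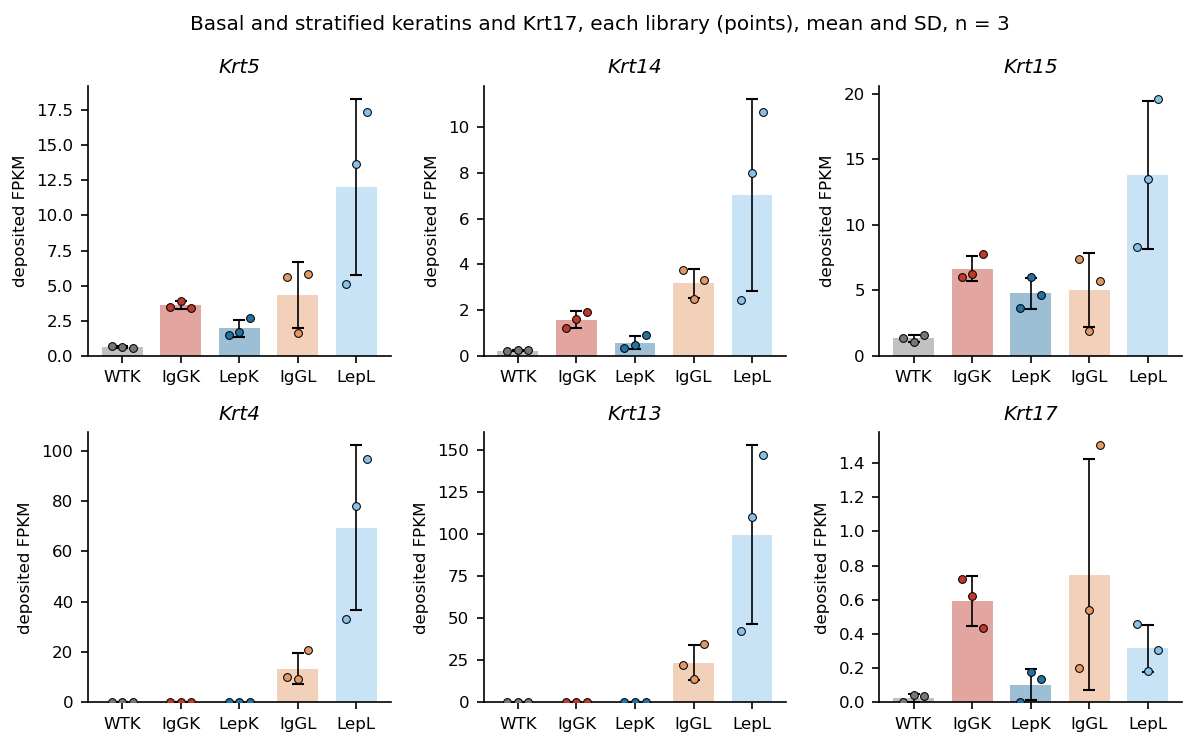
Deposited FPKM of Krt5, Krt14, Krt15, Krt4, Krt13 and Krt17 in the 5 groups, with a point for each library, bars for the means and error bars for the SD (n = 3). Krt4 and Krt13 are near 0 in kidney, and LepL replicates 2 and 3 carry the highest points of Krt5, Krt14, Krt15, Krt4 and Krt13.

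Markers of squamous epithelium and of skeletal muscle were high in the same lung libraries. Lor, a cornified envelope protein, was at 13.3, 16.5 and 22.6 CPM in IgGL and 49.8, 76.4 and 111 in LepL, and was called (log2 2.18, SE 0.29, edgeR adjusted p = 0.0327). In lung edgeR called 0 genes of any kind when IgGL replicate 2 was left out, and likewise for replicate 2 or 3 of LepL (3689, 4069 and 3401 genes had an unadjusted p under 0.05), so that this call and those of the lung lists below ended there too. Krtdap was at 4.93, 1.89 and 8.08 CPM in IgGL and 10.8, 20.7 and 33.4 in LepL. Of the 5 squamous list genes tested, 1 was called (background 4.14% of 19617 genes), and their log2 differences ran from -1.04 to 2.18 with a median of 1.65. The whole list summed to 28.9 to 44.4 CPM in IgGL and 74.0 to 165 in LepL, with Sprr2d at 0 in LepL. Lor and Krtdap made up most of these sums. Acta1, the actin of skeletal muscle, was at 473, 216 and 136 CPM in IgGL and 476, 883 and 1112 in LepL, and the muscle list summed to 324 to 1114 and 1082 to 2565 CPM. LepL replicates 2 and 3 had the highest levels of Krt13, Krt4, Lor, Krtdap and Acta1. This order was not particular to squamous and muscle genes. The same libraries had the highest sums of the alveolar type 2 list (20331 and 23377 CPM) and the airway secretory list (17873 and 22920 CPM). The transitional alveolar list had its highest sum in IgGL replicate 3 (2286 CPM). The part of tissue that is neither alveolar nor airway lining in the keratin differences was not tested.

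**Figure D5:**
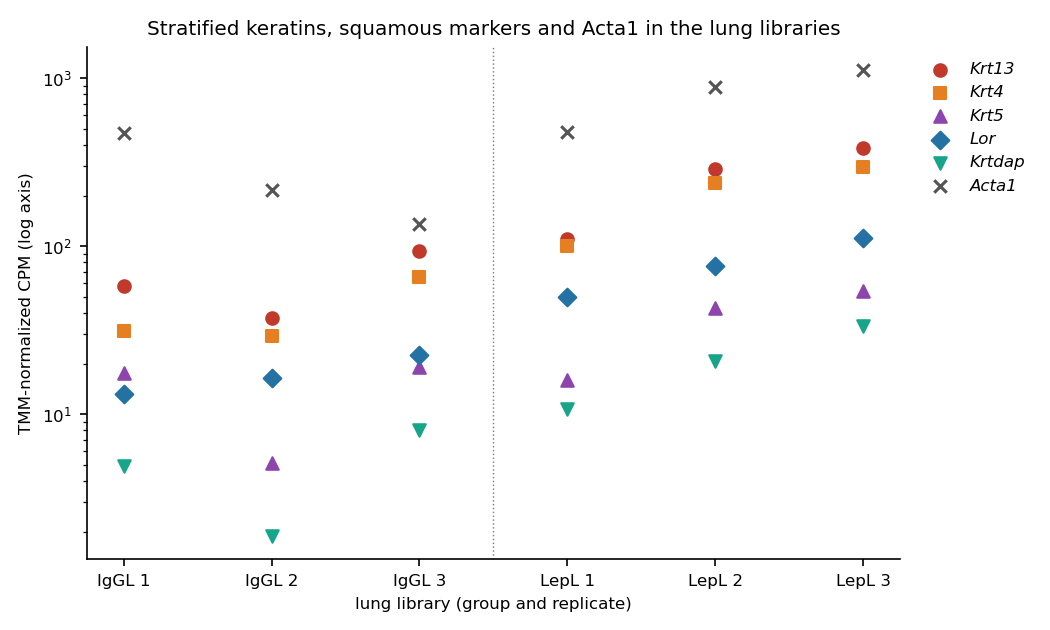
TMM-normalized CPM on a log axis of Krt13, Krt4, Krt5, the squamous genes Lor and Krtdap, and the muscle actin Acta1 in the 6 lung libraries, IgGL left and LepL right of the dotted line. Each of the 6 genes is highest in LepL replicate 3 and next highest in LepL replicate 2.

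The lung cell lists gave a further background. Of the 5 alveolar type 2 genes, 3 were called higher in LepL (background 1.78% of 19617 genes), with Sftpc at 1.40 (SE 0.28) and Lamp3 at 1.62 (SE 0.34). Their sums were 6373 to 11813 CPM in IgGL and 17100 to 23377 in LepL. The 5 alveolar type 1 genes had log2 differences of 0.33 to 1.30 and edgeR adjusted p of 0.0578 to 0.143, with sums of 2984 to 3709 and 4184 to 4729 CPM. Of the 8 transitional alveolar genes, which mark the Krt8-high cells, 1 was called lower (Cldn4, log2 -0.88, SE 0.21, background 2.36%). The sums of this list were 1275 to 2286 CPM in IgGL and 919 to 1252 in LepL. Of 5 airway secretory genes Scgb3a2 was called higher (log2 0.96, SE 0.19), with sums of 7389 to 9303 and 11855 to 22920 CPM. Of 6 mesothelium genes tested 3 were called higher (Upk3b at 1.46, SE 0.24), and of 7 urothelium genes 1 (Upk2, at 2.86, SE 0.62). Upk2 had 3, 12 and 5 counts in IgGL and 24, 71 and 58 in LepL. It passed the filter through LepL, so that its call could only be upward. The 6 airway basal genes had edgeR adjusted p of 0.0912 to 0.409. Of 18 desmosome and plakin genes Pkp1, a plakophilin of stratified epithelium, was called higher (log2 1.70, SE 0.37). Dsg3, a desmosomal cadherin of the same epithelia, had a log2 difference of 1.66 (edgeR adjusted p = 0.0512). Among the 11 other intermediate filament genes tested, edgeR adjusted p was 0.0557 or more, with Vim at -0.80 and Lmna at -0.94. Skeletal muscle genes, of which 1 of 10 was called (Pvalb, log2 1.77), were listed after these data had been seen.

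Between the organs, IgGK against IgGL, 4 of 23 members were called higher in kidney (background 26.3% of 21488 genes) and 12 lower (24.2%), 16 in all (50.5%). The libraries did not overlap in 3 members that were higher and 13 that were lower, against 33.7% and 31.5% of all genes tested (65.3% in either direction). Organ, injury, day and mouse cohort differ together here and cannot be told apart. Krt20 was higher in IgGK (log2 5.86, SE 0.37, edgeR adjusted p = 1.19e-08). Its mean was low in both WTK (0.115 FPKM) and IgGL (0.178 FPKM), and the IgGL mean came mostly from IgGL replicate 2. These means rest on few counts and on FPKM whose scaling differed between the groups, so that they do not rank WTK against IgGL. Krt10 was also higher in IgGK (log2 1.26, SE 0.27, edgeR adjusted p = 0.0011), besides Krt12 and Krt222. Lung was higher in Krt8 (log2 -0.95, SE 0.17), Krt18 (log2 -1.60, SE 0.16), Krt7 (log2 -2.04, SE 0.12), Krt19 (log2 -2.72, SE 0.20), Krt80 (log2 -3.95, SE 0.14), Krt4 (log2 -6.50, SE 0.59) and Krt87 (log2 -5.28, SE 0.63). Krt13 had 1345 to 15123 counts per lung library and 4 counts in 1 of the 9 kidney libraries, so that it passed the filter through the lung libraries. The same held for Krt4, Krt87, Krt79, Krt78, Krt32 and Krt6a, which had too few kidney counts to be tested in the kidney fit. These members and Krt13 were among those called lower, and their calls could only be in that direction. Krt12, with no count in lung, could only be called higher. Krt15, Krt5 and Krt23 overlapped between IgGK and IgGL and were not called.

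The difference of the antibody effects, kidney minus lung, was tested directly and was called by edgeR for 5 of 23 members (background 7.12% of 21488 genes), 1 upward (3.51%) and 4 downward (3.62%), where no threshold on the size was set. Krt80 was higher with LepAb in kidney and lower in lung (difference 1.14, SE 0.17, edgeR adjusted p = 0.00733), and this call held in all 12 fits without 1 library. Krt14 (difference -2.59, SE 0.65, edgeR adjusted p = 0.0327) and Krt5 (difference -2.33, SE 0.65, edgeR adjusted p = 0.0467) were lower with LepAb in kidney and higher on average in lung. Krt23 (difference -1.22, SE 0.33, edgeR adjusted p = 0.0417) was called higher with LepAb in lung and had a log2 difference of 0.18 in kidney. For Krt78 (difference -4.96, SE 1.25, edgeR adjusted p = 0.0336) the kidney side rested on 0 to 12 counts per library. The 4 downward calls were lost in 7 to 9 of the 12 fits without 1 library, and the difference for Krt8 (0.40, SE 0.24, edgeR adjusted p = 0.312) was not called.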

How the data were processed

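The deposited table gave, for 15 libraries of poly(A) RNA without strand information, gene counts as the authors made them and deposited FPKM values per gene. The submitters' processing notes name the build GRCm39 (mm39), DESeq and DESeq2, and the aligner and counter are not given in the sources used here. The deposited FPKM carried an unstated scaling: their implied divisor was 1.02 to 1.46 times the total count. Groups were taken from the sample labels; a line of the sample descriptions that disagreed with titles and treatments was not used. Columns with the authors' fold changes and p-values were not used.

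Counts were tested with edgeR 4.0.16 (quasi-likelihood, TMM) after a filter at a minimum count of 10 and a minimum total of 15, in 1 fit of the kidney libraries, 1 of the lung libraries and 1 of the 4 injured groups for comparisons between organs. SE is the log2 difference divided by the square root of F. The scripts were tested on simulated data. Ratios and sums were compared by exact two-sided permutation tests. Floors cover counting error only. Named with values were the simple, basal and wound keratins and every other member that was called or had a group mean of at least 1 CPM, and at most the 4 called genes of lowest p per list. List genes named without a call, and Krt222, were chosen after their values were seen. Alternatives covered scaling, filters, the replicate block, DESeq2 1.42.0, the samples fitted and each library left out. The members, the lists and the tests were chosen with earlier results of these data known.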

Additional observations from a re-analysis of the deposited data

Results flagged for a closer look

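For 5 keratins the effect of LepAb differed between the injured organs by an interaction term in edgeR, and the differences, kidney minus lung on the log2 scale, are set out here. Krt80 differed by 1.14, Krt5 by -2.33, Krt23 by -1.22, Krt14 by -2.59 and Krt78 by -4.96. The Krt80 call held in all 12 fits without 1 library. The other calls were lost in 9 (Krt5), 8 (Krt23 and Krt14) and 7 (Krt78) of these fits, and those of Krt5 and Krt23 also with the replicate block. The kidney counts of Krt78 were 0 to 12 per library. Organ, injury, day and antibody course differ together between the experiments and cannot be told apart.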

How the results depend on the processing

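Of 1565 values of 87 pairs of a named keratin and a comparison, 1404 kept their direction and their side of the threshold under the alternatives tried, 106 lost a call, 43 gained one and 12 changed sign. Leaving out 1 library at a time gave 10 to 12 called keratins in IgGK against WTK, 3 to 6 in LepK against IgGK, 6 to 10 in LepK against WTK, 0 to 10 in LepL against IgGL, 15 to 16 in IgGK against IgGL and 1 to 8 in kidney minus lung. The count of 3 came without IgGK replicate 1 or 2 or LepK replicate 1. Without a filter on low counts 10 keratins were called in lung and 8 in kidney minus lung, and library-size scaling gave 25 list genes in kidney minus lung against 11. The cause was not tested.

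The replicate block, with the replicate number as a term, gave 0 calls in lung, 4 in kidney minus lung, and 10, 6, 9 and 16 in the other comparisons. Same-numbered libraries had correlations of -0.035 to 0.18 in kidney and -0.055 to 0.071 in lung. Between IgGK and LepK these were 0.18 for replicate 1, 0.17 for replicate 2 and -0.035 for replicate 3. Replicate 1 of either group against replicate 2 of the other gave -0.19. With 3 libraries per group, such correlations cannot settle whether the numbers pair the libraries.

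The sign changes concerned values that were not called. Under library-size scaling they were Krt80 in IgGK against WTK (0.15), Krt7 in LepK against IgGK (-0.14), Krt10 in LepK against WTK (0.033), and Krt18 (-0.17) and Krt10 (-0.015) in kidney minus lung. Leaving out 1 library gave -0.043 to 0.096 for Krt7 and -0.96 to 0.11 for Krt12 in LepK against IgGK, -0.69 to 0.65 for Krt20 in lung, -0.64 to 0.019 for Krt5 and -0.79 to 0.67 for Krt17 in IgGK against IgGL, and -0.15 to 0.27 for Krt18 and -1.29 to 0.10 for Krt20 in kidney minus lung. The log2 difference of the keratin sum was 0.83 with CPM in place of FPKM in IgGK against WTK (0.92 with FPKM), -0.054 in lung (0.074 with FPKM), and -0.092 to 0.26 in lung without 1 library.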
